A study of Mus musculus with 15 samples.

Results

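Serine proteases cut proteins with a catalytic serine, and the uterine epithelium makes both secreted and membrane-bound forms of them. This account covers 10 serine protease genes in mouse endometrial epithelial organoids: the implantation serine proteinases *Prss28* and *Prss29*, the channel-activating protease prostasin (*Prss8*), *Prss22*, *Prss23*, the membrane-anchored proteases *Tmprss2*, *Tmprss4*, *Tmprss11d* and *St14* (matriptase), and the granule protease *Prtn3* (proteinase 3). The genes were chosen by symbol from a table of normalized counts with 16729 genes, where all 10 were found by Ensembl identifier, and they were selected on measured values in part, because *Prss29* and *Tmprss11d* were already known to differ strongly between *Smad2/3* cKO and control organoids. For those genes, comparisons with control + vehicle or with *Smad2/3* cKO (vehicle) are therefore given as a description without a test.

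The organoids were grown in Matrigel from uterine epithelial cells of female mice, and RNA sequencing compared 4 groups. All mice carried floxed alleles, Smad2flox/flox; Smad3flox/flox. Control mice had no cre, and *Smad2/3* cKO mice also carried Ltfcre/+, in which the lactoferrin gene drives an estrogen-induced iCre in the uterine epithelium. Organoids received DMSO (vehicle) or A83-01, an inhibitor of the type I receptors that signal through SMAD2 and SMAD3, which gave control + vehicle (n = 3), control + A83-01 (n = 4), *Smad2/3* cKO (vehicle, n = 4) and *Smad2/3* cKO + A83-01 (n = 4). Ages were not given in the labels used here, and samples are named below by group and replicate number.

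The sums of normalized counts ran from 20241771 to 24423127 per sample, while the read depth behind each value is unknown because whole reads could not be recovered. Of 7 epithelial markers, all 7 were measured, and their summed level lay between 158932 and 202929 in the control + vehicle samples, above the 84516 to 139963 of *Smad2/3* cKO, with the A83-01 samples reaching from 83748 to 169380. The 8 stromal genes found of 9 summed to between 37 and 203 in control + vehicle and to between 4.79 and 136 elsewhere. The part of these differences in the results below was not tested. Counts over the whole gene do not isolate the floxed exons and do not test the deletion. For *Smad2*, control + vehicle had a mean of 1171 ± 149 (SD, n = 3) and *Smad2/3* cKO one of 875 ± 43.8 (SD, n = 4), with no overlap between 1045 and 1335 for the former and 821 and 924 for the latter, but the difference was not called (limma, adjusted p = 0.0656). *Smad3* was at 1624 ± 107 and 1576 ± 333 in these groups, which overlapped (adjusted p = 0.827). The genotypes are used as labelled. In bulk RNA, fewer cells of a type and less RNA per cell cannot be told apart.

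As background, the implantation serine proteinases are products of the uterine glands and have been linked to embryo hatching and implantation. Prostasin and matriptase form a proteolytic cascade at the epithelial surface that cleaves the epithelial sodium channel and protease-activated receptors and is held in check by the Kunitz inhibitors encoded by *Spint1* and *Spint2*. The TMPRSS proteins are single-pass membrane proteases, and proteinase 3 is best known from neutrophil granules.

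Per kilobase of transcript, *Tmprss4* had the highest level of the 10 genes in every group. In control + vehicle organoids its mean was 8897 ± 1754 normalized counts per kb (SD, n = 3), followed by *St14* at 3553 ± 374, *Tmprss2* at 2665 ± 333, *Prss22* at 2392 ± 334 and *Prss8* at 992 ± 156. The ranges per kb of *St14* (3186 to 3934), *Tmprss2* (2322 to 2986) and *Prss22* (2064 to 2731) lay next to each other, and those of *Tmprss2* and *Prss22* overlapped. *Prss23* followed at 287 ± 204, *Tmprss11d* at 164 ± 125 and *Prtn3* at 11.9 ± 8.2, with *Prss23* and *Tmprss11d* again overlapping, and *Prss28* and *Prss29* were listed at 0 in all 3 control + vehicle samples.

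The order below the first 3 genes was different in the other groups. *Prss22* was at 249 ± 121 per kb (SD, n = 4) in *Smad2/3* cKO + A83-01, where it came after *Prss29*, *Prss8* and *Prtn3*. *Prss29* reached 2765 ± 2927 per kb there, with a range from 291 to 6668 that spanned those of *Tmprss2* (2743 to 3466) and *Prss8* (1916 to 2244). *Tmprss11d* was last in *Smad2/3* cKO at 0.426 ± 0.646 per kb.

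**Figure D1:**
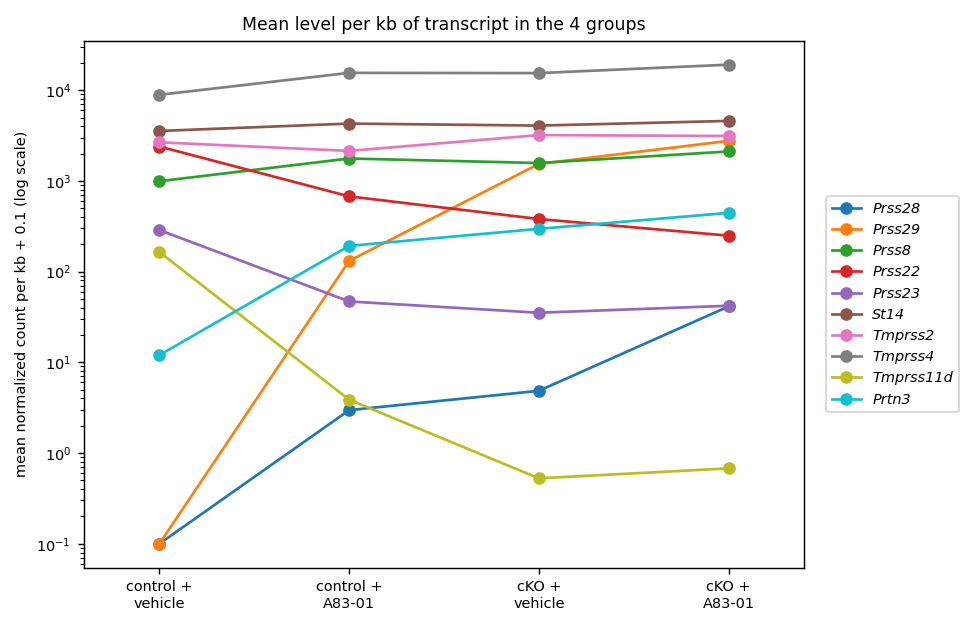
Mean level of each of the 10 genes per kb of its longest coding transcript (y axis, normalized count per kb + 0.1, log scale) in the 4 groups (x axis, n = 3 or 4 samples each); lines join the group means of 1 gene. *Tmprss4* stays on top between 8897 and 19112 per kb, while *Prss29* goes from 0 to 2765 and *Tmprss11d* from 164 to under 1.

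*Prss28* and *Prss29* lie next to each other on chromosome 17 (GRCm38), *Prss28* (ENSMUSG00000024171) at chr17:25308646-25311876 and *Prss29* (ENSMUSG00000034039) at chr17:25318654-25322684, both on the plus strand. Their RefSeq promoters (GRCm38.p6) are printed to show how alike the 2 upstream regions are, at chr17:25308396-25308645 and chr17:25318404-25318653, with runs of at least 12 identical bases in capitals.
Prss28: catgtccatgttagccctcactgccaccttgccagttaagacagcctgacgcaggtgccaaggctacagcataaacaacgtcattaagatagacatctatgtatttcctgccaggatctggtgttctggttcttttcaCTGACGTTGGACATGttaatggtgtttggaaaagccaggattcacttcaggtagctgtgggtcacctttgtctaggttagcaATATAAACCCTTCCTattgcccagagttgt
Prss29: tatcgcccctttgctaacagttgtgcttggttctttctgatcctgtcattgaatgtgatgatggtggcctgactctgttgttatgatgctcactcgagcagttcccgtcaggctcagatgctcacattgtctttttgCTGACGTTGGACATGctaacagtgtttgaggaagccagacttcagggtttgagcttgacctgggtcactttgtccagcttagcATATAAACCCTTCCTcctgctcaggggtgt
Over the 250 bases before the start the sequences were identical at 161 of 258 aligned columns, or 62.4%, against 45.3% to 52.3% for the other pairs among these promoters and those of *Tmprss11d*, *Tmprss11a* and *Prtn3*. The capitals mark 2 runs of 15 bases each, starting at −112 and −30 in *Prss28* and at −113 and −30 in *Prss29*, and each run was found in no other gene's promoter among the 32851 entries searched on both strands. The letters TATAAA begin at −29 in both promoters, within the second run, and 12.4% of all promoters of that length hold TATAAA or its reverse complement. Promoter entries were found for 6 of the 10 genes, and *Prss8*, *Prss22*, *Tmprss4* and *St14* had none.

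*Prss29* was listed at 0 in all 3 control + vehicle samples and was above 0 in all 12 other samples. Replicates 1 to 4 had normalized counts of 16.3, 123, 157 and 322 in control + A83-01. They were 188, 383, 6403 and 293 in *Smad2/3* cKO, and 898, 7875, 3945 and 344 in *Smad2/3* cKO + A83-01. The 12 samples with A83-01, the deletion or both did not overlap control + vehicle, but replicate 3 of *Smad2/3* cKO and replicates 2 and 3 of *Smad2/3* cKO + A83-01 were well above the rest of their groups. *Prss29* passed the filter on low values only through the samples with A83-01 or the deletion, and the 3 values of 0 also belong to the comparison it was chosen on, so its levels against control + vehicle are a description with no test and no fold change.

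*Prss28* ran much lower and in the same samples. Its normalized counts were 0 in all 3 control + vehicle samples, then 0, 7.89, 3.9 and 1.86 in control + A83-01. In *Smad2/3* cKO they were 0.852, 1.34, 15 and 5.41, and in *Smad2/3* cKO + A83-01 they were 12, 162, 21.4 and 0.923. The highest sample in each *Smad2/3* cKO group was the one with the highest *Prss29*. *Prss28* was under the filter on low values in both comparisons with control + vehicle, where an exact two-sided permutation test gave p = 0.229 for A83-01 in control organoids and p = 0.0571 for *Smad2/3* cKO against control. The latter is the smallest p that 4 against 3 samples allow. Where *Prss28* passed the filter, it did so only through *Smad2/3* cKO + A83-01, mainly replicate 2 at 162. Its fold changes and its interaction are therefore not read. No sequence of 31 bases was shared between annotated transcripts of *Prss28* and *Prss29*. Of the 31-base words of *Prss29*, 3.9% also occur in the transcripts of other annotated genes, most often *AC122454.1*, against 0.506% for *Prss28*, and how reads were split between such genes is not known here.

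**Figure D2:**
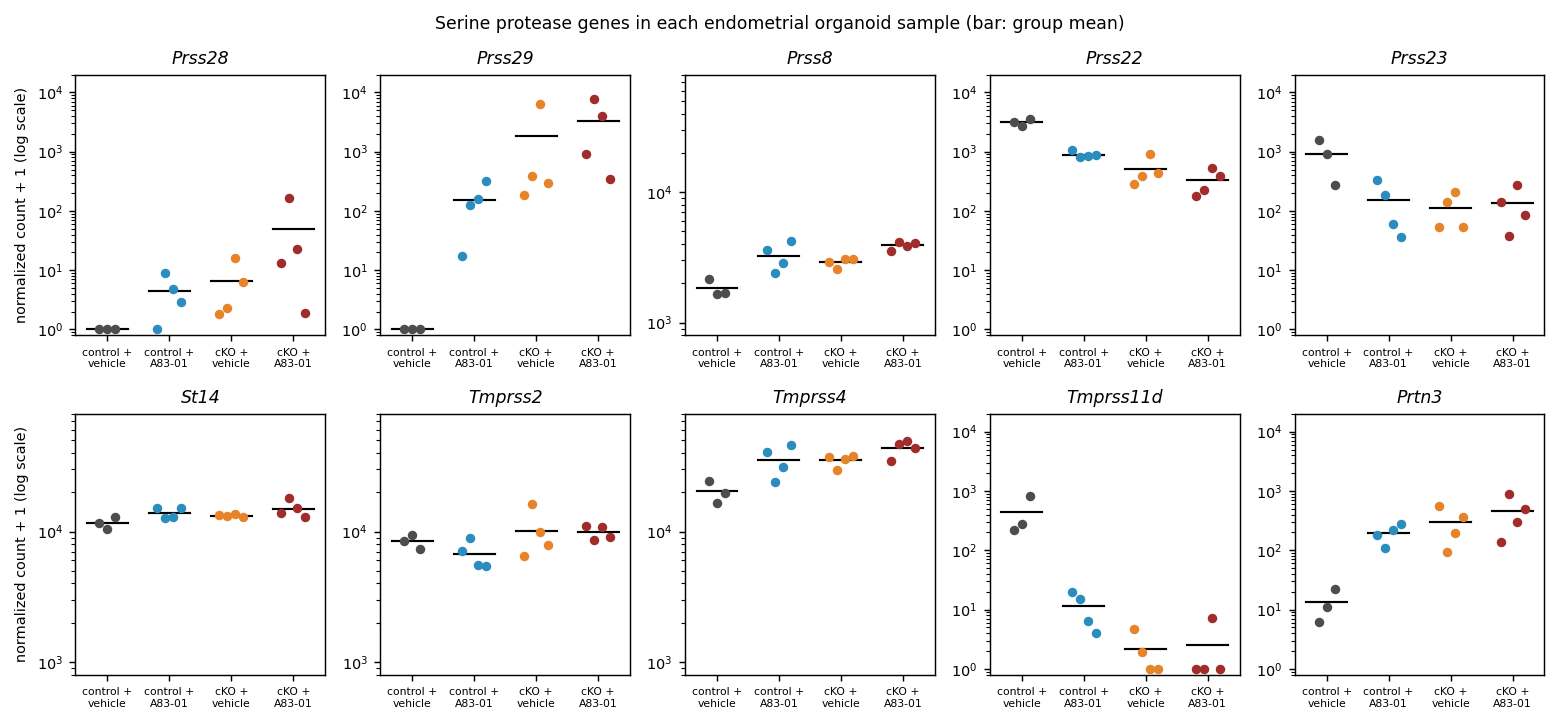
Normalized count + 1 (y axis, log scale) of each of the 10 genes in the 15 samples; points are samples in replicate order from left to right, bars are group means. The y ranges differ between panels. *Prss29* sits at 0 in control + vehicle and between 16.3 and 7875 elsewhere, and *Tmprss11d* goes from between 220 and 836 to at most 18.4.

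The genes flanking the pair were looked at after these values were seen. *Tpsab1* and *Tpsb2*, which encode mast cell tryptases in other tissues, start 26.9 kb and 47.7 kb beyond the *Prss29* start. *Tpsab1* was at 2.04, 3.74 and 38.8 in control + vehicle and at 17.1, 27.8, 189 and 170 in control + A83-01. It was at 338, 321, 2287 and 187 in *Smad2/3* cKO and at 777, 6791, 1512 and 239 in *Smad2/3* cKO + A83-01. *Tpsab1*, which belongs to the list of secreted trypsin-like proteases, rose in *Smad2/3* cKO against control + vehicle by 5.81 on the log2 scale (SE 1.03, limma, adjusted p = 0.0058). *Tpsb2* was at 0 in control + vehicle and reached 167 in replicate 3 of *Smad2/3* cKO and 248 in replicate 2 of *Smad2/3* cKO + A83-01, the same samples that led for *Prss29*.

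Over the 15 samples the log2 values of *Prss29* correlated with *Tpsab1* at Pearson r = 0.93, with *Tpsb2* at 0.88 and with *Prss28* at 0.82. Within the 8 *Smad2/3* cKO samples the values were 0.95, 0.95 and 0.88. These are descriptions over samples that share groups and the neighbouring genes of 1 region. Within 200 kb of *Prss29*, *Clcn7*, a chloride transporter gene, had group means between 985 and 1258. The low *Tekt4* had group means of 1.48 in control + vehicle, 9 with A83-01, 16.3 in *Smad2/3* cKO and 23.8 in *Smad2/3* cKO + A83-01, and was not called. *Gnptg*, a subunit of a lysosomal enzyme-tagging transferase, was the other neighbour called, at 631 ± 101 in control + vehicle and 1454 ± 133 in *Smad2/3* cKO (log2 fold change 1.21, SE 0.16, adjusted p = 0.00156). *Tpsab1* and *Gnptg* were the 2 called higher of 8 neighbours tested there, beside 4.08% of all genes.

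**Figure D3:**
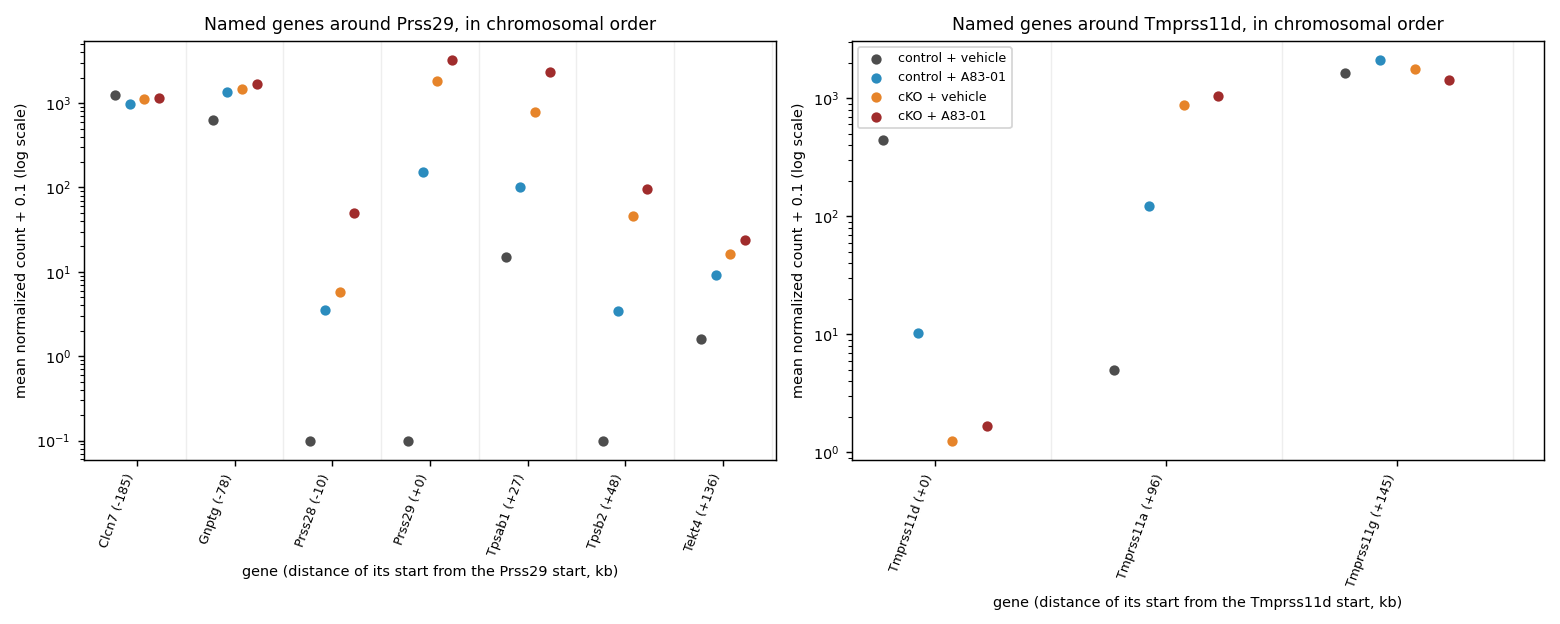
Group means (y axis, normalized count + 0.1, log scale) of the genes named here within 200 kb of *Prss29* (left) and *Tmprss11d* (right), in chromosomal order with the distance of each start from that gene's start in kb (x axis); each point is the mean of 3 or 4 samples. *Prss28*, *Prss29*, *Tpsab1* and *Tpsb2* climb from control + vehicle to *Smad2/3* cKO + A83-01 while *Clcn7* stays between 985 and 1258, and *Tmprss11a* climbs from 4.87 to 1041 beside the falling *Tmprss11d*.

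Of 7 mast cell markers looked up after the tryptase values were seen, 4 were found, and no test was run on them. Their summed level lay between 76.9 and 130 for the control + vehicle samples, and with A83-01 between 0 and 48.8. The *Smad2/3* cKO samples had sums of 3.73 and 31.4 at the extremes, and with A83-01 the extremes were 1.01 and 7.52. Most of these sums came from *Kit*, a receptor gene that other cells also express, which was at 38.5 to 123 in control + vehicle and at 3.63 to 29.5 in *Smad2/3* cKO. The IgE receptor gene *Fcer1a* was at 0 in all 8 *Smad2/3* cKO samples, and the receptor gene *Mrgprb2* was at 0 in 7 of them. The chymase gene *Cma1* had group means of 1.49 in control + vehicle, 1.49 with A83-01, 1.14 in *Smad2/3* cKO and 0.27 in *Smad2/3* cKO + A83-01.

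**Figure D4:**
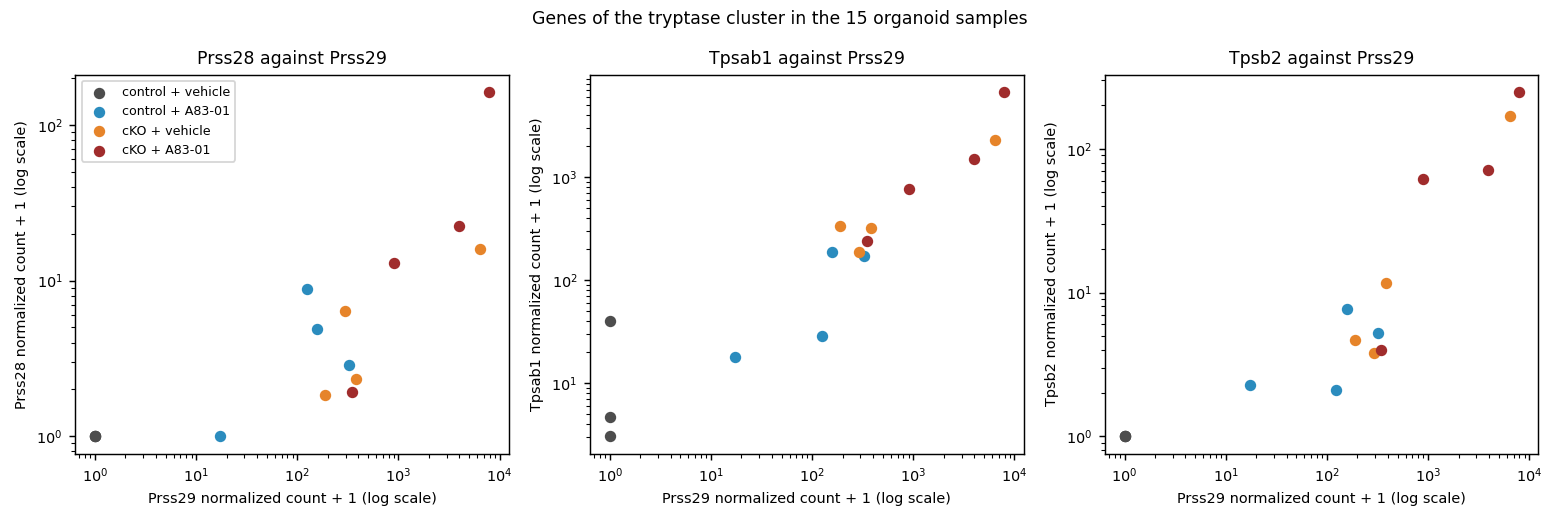
*Prss28*, *Tpsab1* and *Tpsb2* (y axes) against *Prss29* (x axes), all as normalized count + 1 on log scales, with 1 point per sample coloured by group. Samples with more *Prss29* had more of each neighbour (Pearson r = 0.82, 0.93 and 0.88 over 15 samples), and the upper right point in each panel is replicate 2 of *Smad2/3* cKO + A83-01.

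*Prss8*, *St14* and *Tmprss4* were abundant in all groups, and none of them was called in any comparison at the threshold used. *Prss8* (ENSMUSG00000030800, chr7:127925716-127930104) was at 2171, 1656 and 1685 in control + vehicle and at 3604, 2392, 2868 and 4215 in control + A83-01. It was at 2934, 2598, 3061 and 3067 in *Smad2/3* cKO and at 3548, 4155, 3860 and 4077 in *Smad2/3* cKO + A83-01. No sample of the other groups was as low as the control + vehicle samples. The log2 fold changes against control + vehicle were 0.81 with A83-01 (SE 0.22, limma, adjusted p = 0.0571) and 0.67 in *Smad2/3* cKO (SE 0.14, adjusted p = 0.011), so neither was called at the threshold of 0.01. With all 4 groups in 1 fit, the A83-01 value was called (adjusted p = 0.00648).

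*Tmprss4* (ENSMUSG00000032091, chr9:45172726-45204092), a membrane protease of epithelial and cancer cells, followed *Prss8* from sample to sample (Pearson r = 0.97 over 15 samples). It was at 24594, 16648 and 19719 in control + vehicle, and at 37505, 29794, 35836 and 37897 in *Smad2/3* cKO. The groups did not overlap, and the log2 fold change was 0.81 (SE 0.18, limma, adjusted p = 0.0163). In control + A83-01, *Tmprss4* ran from 23862 to 46021, which overlapped control + vehicle at its lower end (log2 fold change 0.78, SE 0.26, adjusted p = 0.114). Its annotated span overlaps an antisense gene, *BC049352*, by 22086 bases including introns, and *BC049352* had group means of only 8.1 to 12.5 beside 20321 to 43651 for *Tmprss4*.

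*St14* (ENSMUSG00000031995, chr9:31089402-31131853) was the steadiest of the 10 genes. Control + vehicle had a mean of 11579 ± 1219 (SD, n = 3) and control + A83-01 of 13968 ± 1366 (SD, n = 4). The mean was 13270 ± 312 in *Smad2/3* cKO and 14946 ± 2182 in *Smad2/3* cKO + A83-01. The 95% interval of its log2 fold change in *Smad2/3* cKO against control + vehicle was −0.09 to 0.49. *Tmprss2* (ENSMUSG00000000385, chr16:97564682-97611195), the androgen-responsive protease that also primes viral spike proteins, was at 8425 ± 1051 in control + vehicle and 10117 ± 4314 in *Smad2/3* cKO. One *Smad2/3* cKO sample, replicate 2, held 16230, against 6457 to 9906 in the other samples of its group. The 95% interval of the *Tmprss2* log2 fold change was −0.45 to 0.82, and without that sample the value changed sign to −0.07.

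*Prss22* (ENSMUSG00000045027, chr17:23993534-23998100), which encodes the tryptase epsilon of airway epithelium, fell under both kinds of SMAD2/3 inactivation. Its normalized counts were 3154, 2732 and 3616 in control + vehicle, and 1052, 813, 833 and 877 in control + A83-01. They were 280, 390, 903 and 442 in *Smad2/3* cKO and 178, 228, 530 and 384 in *Smad2/3* cKO + A83-01. The lowest control + vehicle sample was above every other sample. A83-01 in control organoids lowered *Prss22* 3.54-fold (log2 fold change −1.82, SE 0.17, limma, adjusted p = 0.000712), and it was 6.88-fold lower in *Smad2/3* cKO than in control + vehicle (−2.78, SE 0.34, adjusted p = 0.00126). *Prss22* kept both calls in every alternative, including each sample left out.

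The *Prss22* level also differed between genotypes under A83-01 without passing the test. All 4 *Smad2/3* cKO + A83-01 samples were below all 4 control + A83-01 samples, with a log2 fold change of −1.56 (95% interval −2.26 to −0.85, limma, adjusted p = 0.104). Between *Smad2/3* cKO and control + A83-01, which each carry 1 form of inactivation, the groups overlapped and the log2 fold change was −0.96 (95% interval −1.66 to −0.26, adjusted p = 0.715).

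*Prss23* (ENSMUSG00000039405, chr7:89507783-89527187), a secreted protease first described in the ovary, varied widely among the control samples. It was at 1590, 919 and 273 in control + vehicle and at 326, 184, 59 and 35.4 in control + A83-01. In *Smad2/3* cKO it was at 53, 138, 209 and 52.2, and in *Smad2/3* cKO + A83-01 at 142, 36.2, 278 and 85.6. Control samples 1 to 3 carry the same mouse numbers in both treatments, and each had less *Prss23* with A83-01 than with vehicle. The unpaired log2 fold change was −2.78 (SE 0.82, limma, adjusted p = 0.0777), and in the fit blocked on replicate number *Prss23* was called at −2.26 (adjusted p = 0.00252). Replicate 4 of control + A83-01 has no partner and adds nothing to that value. With the mouse number as a random effect, which keeps that sample, it was −2.54 (adjusted p = 0.0126). *Smad2/3* cKO samples were all below the control + vehicle samples (−2.94, SE 0.66, adjusted p = 0.0159), and without replicate 3 of control + vehicle this was called (−3.66, adjusted p = 0.00656).

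*Tmprss11d* (ENSMUSG00000061259, chr5:86302217-86373420), the human airway trypsin-like protease, was above 20 normalized counts in the control + vehicle samples alone. Its values there were 220, 281 and 836. They were 18.4, 14.1, 5.39 and 3.09 in control + A83-01, then 3.71, 0.92, 0 and 0 in *Smad2/3* cKO and 0, 0, 6.27 and 0 in *Smad2/3* cKO + A83-01. No group overlapped control + vehicle. The 3 control + vehicle values also belong to the comparison *Tmprss11d* was chosen on. Its lower level with A83-01 in control organoids is therefore a description with no test. In the 3 comparisons without control + vehicle, *Tmprss11d* was under the filter. The *Smad2/3* cKO values also belong to the comparison it was chosen on, so *Smad2/3* cKO against control + A83-01, where the groups overlapped, has no test. For *Smad2/3* cKO + A83-01 against control + A83-01 an exact two-sided permutation test gave p = 0.0857, where the smallest p possible was 0.0286.

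The 250 bases before the *Tmprss11d* start (RefSeq, GRCm38.p6, minus strand, chr5:86373388-86373637) are shown because the gene lost most of its signal, with capitals on the only match to the short SMAD-binding letters GTCTG or their reverse complement CAGAC.
Tmprss11d: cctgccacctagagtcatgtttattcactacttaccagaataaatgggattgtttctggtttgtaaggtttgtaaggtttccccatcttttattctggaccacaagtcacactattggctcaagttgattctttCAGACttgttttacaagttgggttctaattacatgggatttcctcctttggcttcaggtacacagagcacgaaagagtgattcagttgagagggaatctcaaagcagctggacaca
The match begins at −116. GTCTG or CAGAC occurs in 42.2% of all promoters of this length, so the match is a description of the window alone. *Prss29* has 1 such match, at −78, and *Prss28* has none.

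A neighbour of the same family went in the opposite direction. *Tmprss11a*, whose start lies 95.6 kb from that of *Tmprss11d*, was at 5.79, 5.22 and 3.6 in control + vehicle and at 36.8, 109, 213 and 131 in control + A83-01. It was at 124, 1498, 1258 and 630 in *Smad2/3* cKO and at 1441, 579, 1326 and 817 in *Smad2/3* cKO + A83-01. None of these groups overlapped control + vehicle. The *Tmprss11a* mean of 4.87 in control + vehicle was under the filter on low values. *Tmprss11a* passed that filter only through the samples where it was higher, so its levels are a description with no test. The next gene of the cluster, *Tmprss11g*, had group means between 1433 and 2119 and was not called in any comparison.

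*Prtn3* (ENSMUSG00000057729, chr10:79874476-79883174) rose in both comparisons with control + vehicle. It was at 5.08, 10 and 21.5 in control + vehicle and at 180, 109, 220 and 278 in control + A83-01. In *Smad2/3* cKO its 4 values ran from 92.7 to 557 with a median of 281, and in *Smad2/3* cKO + A83-01 it was at 136, 893, 300 and 490. The highest control + vehicle sample was under every other sample. The log2 fold change was 4.03 with A83-01 in control organoids (SE 0.53, limma, adjusted p = 0.00348) and 4.43 in *Smad2/3* cKO against control + vehicle (SE 0.66, adjusted p = 0.00301). The first call was lost without replicate 1 or 2 of control + vehicle or replicate 3 or 4 of control + A83-01 (adjusted p = 0.0136 to 0.02). The second was lost without replicate 1 or 2 of control + vehicle or replicate 4 of *Smad2/3* cKO (adjusted p = 0.011 to 0.0161), without limma's trend (adjusted p = 0.0107) and with the replicate number as a blocking factor (adjusted p = 0.026).

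Markers of the neutrophils that usually express *Prtn3* were measured as well. Of 15 granule protease and neutrophil genes looked up, 7 were found, and the median of their summed level was 564 in control + vehicle. With A83-01 the control median was 869, and the *Smad2/3* cKO medians were 928 with vehicle and 844 with A83-01. The highest sum of any sample, 7021, belonged to replicate 1 of *Smad2/3* cKO, where *S100a8*, also made by epithelia, was at 4704 and *Prtn3* at 557, the highest of its group. Of 6 tested in *Smad2/3* cKO against control + vehicle, the pan-leukocyte gene *Ptprc* was the only one called, beside 4.08% of all genes called higher and 3.30% lower. *Ptprc* rose in *Smad2/3* cKO to 225 ± 77.4 (SD, n = 4) over a control + vehicle level of 22.8 ± 13.8 (log2 fold change 3.33, SE 0.46, limma, adjusted p = 0.00228). With A83-01 in control organoids *Ptprc* was at 68.5 to 236 against 12.5 to 38.5, with no overlap and no call (log2 fold change 2.82, SE 0.56, adjusted p = 0.019). Other genes of the list went different ways. From control + vehicle through control + A83-01 and *Smad2/3* cKO to *Smad2/3* cKO + A83-01, *Ly6g* had means of 154, 107, 84.6 and 65.5. In that order *Itgam* was at 19.6, 3.96, 45 and 5.43, and *Mpo* at 50.8, 56.5, 113 and 110. The *Itgam* mean in *Smad2/3* cKO rested on its highest sample, at 153, and the median was 13.2 there and in control + vehicle. The correlation of *Prtn3* with *Ptprc* was 0.80 over the 15 samples and −0.39 within the 8 *Smad2/3* cKO samples. The annotated 5′ end of *Prtn3* overlaps *Plppr3*, on the other strand, by 159 bases, and *Plppr3* rose from 189 ± 88.4 to 653 ± 225 in *Smad2/3* cKO (log2 fold change 1.81, SE 0.36, adjusted p = 0.00889). *Prtn3* and *Plppr3* correlated at 0.85 over the 15 samples and at 0.69 within the 8. The part of leukocytes and of *Plppr3* reads in the *Prtn3* value was not tested.

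For A83-01 in control organoids, limma called *Prtn3* higher and *Prss22* lower among the 9 genes that passed the filter, beside 1.19% of all 13009 genes tested called higher and 1.08% lower. In *Smad2/3* cKO against control + vehicle, *Prtn3* was called higher and *Prss22* lower, beside 4.08% of 13149 genes called higher and 3.30% lower. *Prss29* and *Tmprss11d* are left out of both counts, for the way they were chosen. The median log2 fold change of the 9 genes, with *Prss29* and *Tmprss11d* included, was 0.27 and 0.20, beside −0.02 and 0.00 for all genes tested. Both medians are the values of *St14*, which was not called. The 3 control + vehicle samples serve in each of these comparisons, so their values are not independent. Dropping the threshold to an adjusted p under 0.05 added *Prss8*, *Prss23* and *Tmprss4* in *Smad2/3* cKO.

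None of the 10 genes was called when A83-01 was added to *Smad2/3* cKO organoids. limma called 0% of 12998 genes higher and 0% lower, with 554 at an unadjusted p under 0.05, of which 1 was among the 9 genes tested. It was *Prss8*, whose 4 *Smad2/3* cKO + A83-01 samples were all above the 4 *Smad2/3* cKO samples (log2 fold change 0.42, 95% interval 0.19 to 0.66, adjusted p = 0.994). For *Prtn3* the interval was −0.86 to 1.99, so these samples leave both a rise and a fall within range. *Prss29* overlapped between the groups (log2 fold change 1.53), a description with no test because its *Smad2/3* cKO values belong to the comparison it was chosen on. *Prss28*, also among the 9, passed the filter only through *Smad2/3* cKO + A83-01 and is not read. The interval for *Prss22* was −1.52 to 0.32.

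Between *Smad2/3* cKO and control organoids under A83-01, *Prss29* had the widest log2 difference of the 9 genes tested. All 4 *Smad2/3* cKO + A83-01 samples were above the 4 control + A83-01 samples, with a log2 fold change of 4.11 (95% interval 1.72 to 6.50, limma, adjusted p = 0.22), which did not pass the test. No gene of the 10 was called, beside 0.0232% of 12915 genes called higher and 0% lower, and 1229 genes, 3 of the 9 tested here, had an unadjusted p under 0.05. The other 2 were *Prss22* and *Tmprss2*, the latter at 9877 ± 1159 against 6767 ± 1688 (log2 fold change 0.57, 95% interval 0.16 to 0.98, adjusted p = 0.35).

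Deletion and inhibitor were also set against each other directly. Between *Smad2/3* cKO and control + A83-01, limma called 0% of 12980 genes higher and 0% lower, with 826 genes at an unadjusted p under 0.05. It called none of the 8 genes tested here. *Prss22* had an unadjusted p under 0.05, and *Prss29* is left out of that count for the way it was chosen. The *Smad2/3* cKO values of *Prss29* belong to the comparison it was chosen on, so its level here is a description with no test. Its groups overlapped, and the log2 fold change was 2.57, or 1.44 without replicate 3 of *Smad2/3* cKO. The 95% interval was −0.76 to 1.56 for *Prtn3* and −0.46 to 0.52 for *Tmprss4*, so both signs lay within each.

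The interaction, the effect of A83-01 in *Smad2/3* cKO minus its effect in control organoids, was called for none of the 10 genes, with 0.0995% of 13066 genes called above 0 and 0.452% below. limma gave 5 of the 10 an unadjusted p under 0.05, beside 1865 of all 13066 genes. Among the 5 were *Prss29* and *Tmprss11d*, whose interaction contains the comparison they were chosen on and is not read. *Prtn3* had an interaction of −3.46 (SE 0.90, adjusted p = 0.0769), and it had already left the control + vehicle range in *Smad2/3* cKO before A83-01 was added.

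**Figure D5:**
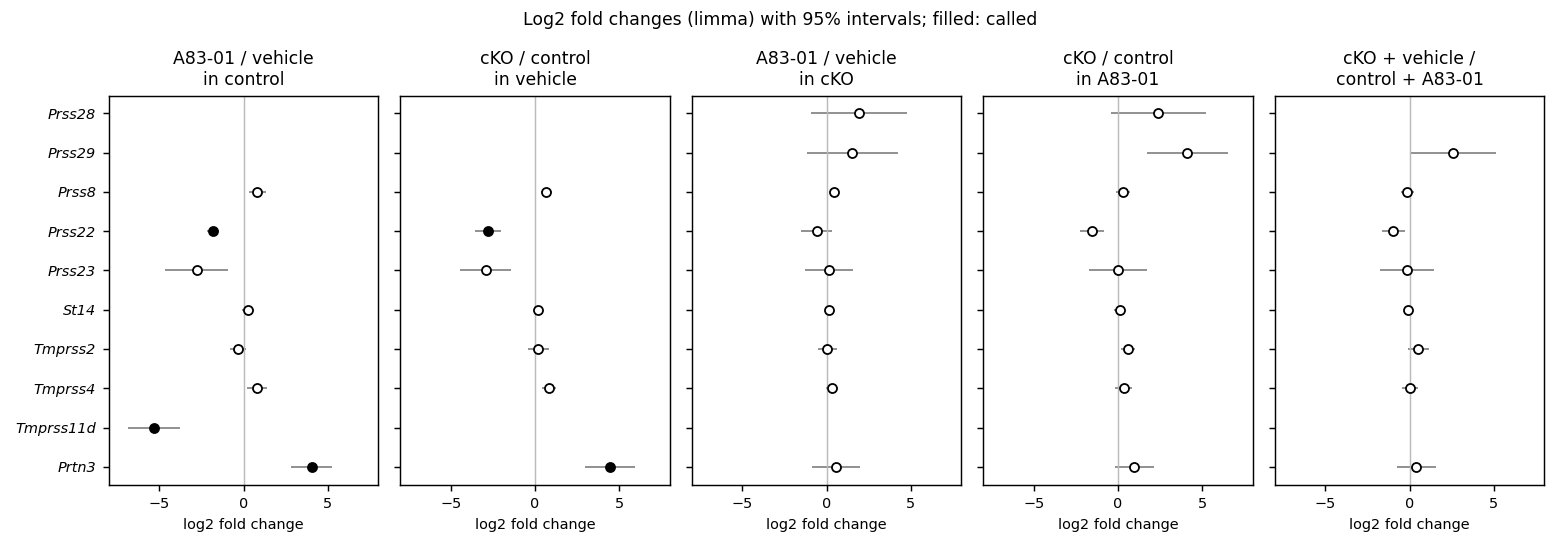
Log2 fold changes (x axis) of the 10 genes (y axis) in the 5 comparisons between groups, with 95% intervals from limma; filled points passed an adjusted p under 0.01 and the fold limits, open points did not. Genes under the filter on low values, *Prss29* against control + vehicle and *Tmprss11d* in *Smad2/3* cKO against control + vehicle are not drawn. *Prss22*, *Tmprss11d* and *Prtn3* carry the filled points in the first 2 panels, and no point is filled in the other 3. The *Tmprss11d* point in the first panel rests on the control + vehicle values it was chosen on and is not read as a test. The *Prss29* points that use *Smad2/3* cKO with vehicle and the *Prss28* points are not read as tests either.

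The genes most like the 3 members with the widest range of group means were found by correlation over the 15 samples among 13066 genes. For *Prss29* they were *1810010D01Rik* (Pearson r = 0.961), *Rgs1* (0.948), *Ncald* (0.938), *Tmprss11a* (0.929) and *Tpsab1* (0.928), of which *Rgs1* and *1810010D01Rik* were also at 0 in control + vehicle. *Tmprss11d* was most like *Acsbg1* (0.982), whose group mean went from 1108 in control + vehicle to 60, 13.8 and 6.17, then *Gstm7* (0.946), *Kcng1* (0.945), *Tcf7l1* (0.942) and *Bcar1* (0.938). *Prtn3* was most like the water channel gene *Aqp8* and *Gm266* (both 0.957), then *Rrm2* (0.951), *Mipep* and the guanylin-family gene *Guca2b* (both 0.950). These correlations are descriptions over samples that share groups.

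Among other membrane serine proteases, 9 of 20 listed genes were found and 8 tested in *Smad2/3* cKO against control + vehicle. *Tmprss11a* is left out of the counts here, because it passed the filter only through the samples where it was higher. Of the others, only *Tmprss6* was called higher and none lower, beside 4.08% of all genes called higher and 3.30% lower. *Tmprss6* encodes matriptase-2, the regulator of hepcidin. The *Tmprss6* mean was 1229 ± 1150 in *Smad2/3* cKO (SD, n = 4) and 53.1 ± 47.8 in control + vehicle (log2 fold change 4.49, SE 0.74, limma, adjusted p = 0.00438). With A83-01 in control organoids, 7 were tested and none besides *Tmprss11a* was called, beside 1.19% of all genes called higher. The median log2 fold changes of the list, with *Tmprss11a* included, were 1.08 and 0.64, beside 0.00 and −0.02 for all genes tested.

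Of 54 secreted trypsin-like proteases listed, 34 were found and 21 tested in *Smad2/3* cKO against control + vehicle. Of these, 3 rose and 1 fell, beside 4.08% of all genes called higher and 3.30% lower. The median log2 fold change was 0.33, beside 0.00 for all genes tested. Besides *Tpsab1*, the risers were the tissue kallikrein *Klk1*, at 14.5 to 66.1 in control + vehicle and 262 to 4558 in *Smad2/3* cKO (5.20, SE 0.86, limma, adjusted p = 0.00438), and the neurotrypsin gene *Prss12* (3.10, SE 0.21, adjusted p = 8.59e-05). The complement protease *Cfb* fell from 132924 ± 20856 to 41259 ± 18402 (−1.78, SE 0.33, adjusted p = 0.00696). limma called 0 of the 21 for A83-01 in control organoids, beside 1.19% of all genes called higher and 1.08% lower. Of the 21, 6 had an unadjusted p under 0.05, beside 2882 of 13009 genes. *Klk1* was among the 6, at 2583 ± 2494 (log2 fold change 5.49, adjusted p = 0.0141).

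Genes that act with prostasin and matriptase included 2 receptors that fell. Of 15 listed, 14 were found and 13 tested in each comparison with control + vehicle. limma called 1 of the 13 lower with A83-01 and 1 in *Smad2/3* cKO, beside 1.08% and 3.30% of all genes called lower. The protease-activated receptor gene *F2rl1*, a matriptase substrate, fell 2.48-fold in *Smad2/3* cKO (log2 fold change −1.31, SE 0.22, limma, adjusted p = 0.00474). The thrombin receptor gene *F2r* fell 2.78-fold with A83-01 in control organoids (−1.47, SE 0.20, adjusted p = 0.00409). None rose in either comparison. The inhibitor *Spint1* was at 12656 in control + vehicle and 19048 in *Smad2/3* cKO (0.58, SE 0.16, adjusted p = 0.0333), and *Spint2* at 27474 and 30872. Of 5 uterine gland genes found, 0 were called by limma in either comparison with control + vehicle. Over all genes, 1.19% (A83-01) and 4.08% (*Smad2/3* cKO) were called higher and 1.08% and 3.30% lower. An unadjusted p under 0.05 was reached by 1 of the 5 with A83-01, beside 2882 of 13009 genes, and by 3 in *Smad2/3* cKO, beside 4434 of 13149. Among the markers, the epithelial tight junction gene *Cldn4* (−2.55, SE 0.42, adjusted p = 0.00455) and the smooth muscle actin gene *Acta2* (−3.12, SE 0.60, adjusted p = 0.00841) fell in *Smad2/3* cKO.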

How the data were processed

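RNA of organoids from 15 samples had been sequenced with a SMART-Seq v4 low-input kit, which does not mark strand. Per the submitters' processing notes and the study's methods, reads were assigned with Salmon 1.4.0 to GRCm39 and normalized with DESeq2 1.32.0. The deposited signal is 1 table of normalized counts divided by size factors, made by the authors. Only 2.63% to 5.17% of values under 12 lay within 0.02 of a whole multiple of the lowest value of their sample, so whole reads could not be recovered and no count model was used. Coordinates and transcript lengths are from GENCODE M21 and promoters from RefSeq, both GRCm38, which is not the build of the table.

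Values were taken as log2(normalized count + 1) and fitted with limma 3.58.1 (lmFit and eBayes with a trend, R 4.3.3) on the samples of each comparison and genes with a mean of at least 10. p-values were adjusted over all genes tested (Benjamini-Hochberg), and a gene was called at an adjusted p under 0.01 and a fold above 1.4 or below 0.714. The script was tested on simulated data. All 10 genes, *Smad2*, *Smad3*, called genes of the fixed lists (up to 8 per list) and the 5 genes most correlated with the 3 members of widest range are named. The members and lists were chosen with earlier results of these data known. Mast cell markers and flanking genes were added after values were seen.

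Control samples 1 to 3 carry the same mouse numbers with vehicle and with A83-01, and their deviations from the group means correlated at 0.402 on average. Other pairs of these 2 groups averaged −0.136 and reached 0.355. In *Smad2/3* cKO, replicate 2 with vehicle and replicate 1 with A83-01 share a mouse number (correlation 0.365), and no other such pair exists across treatments. Pairs of different mouse numbers there reached 0.393, so the correlations alone do not show that samples pair by mouse. Alternatives were the pseudocount (0.1 or 10), the filter on low values (none or 50), quantile normalization, no trend, all groups in 1 fit, an adjusted p under 0.05, blocks by replicate or mouse number, and leaving out each sample. The labels say that mice differed within a genotype. The samples of 1 mouse under both treatments are not independent, and p-values measure the spread between organoid samples.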

Additional observations from a re-analysis of the deposited data

Results flagged for a closer look

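In the 3 groups of 4 samples, each of the 10 genes was looked at for a sample set apart from the other 3, which made 30 combinations. Chance flags about 1 in 20 such groups where values are normally distributed, and 3 were found. The rule was applied to normalized counts without the log2 step, so that rate is not assured here. Replicate 3 of *Smad2/3* cKO held 6403 normalized counts of *Prss29* against 188 to 383 in the other samples of its group, a gap of 0.969 of the whole range. Replicate 2 of *Smad2/3* cKO + A83-01 held 162 of *Prss28* against 0.923 to 21.4, a gap of 0.873. The same samples also led their groups for *Tpsab1* and *Tpsb2*. *Tmprss11d* was at 6.27 in replicate 3 of *Smad2/3* cKO + A83-01 and at 0 in the other 3 samples. That gap of 1.000 rests on very low values, and any value above 0 would have given it.

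The effect of A83-01 on *Prss12*, the neurotrypsin gene, differed between the genotypes by −2.40 on the log2 scale (limma interaction, SE 0.41, adjusted p = 0.00773). Its group means were 313 in control + vehicle, 1087 in control + A83-01, 2632 in *Smad2/3* cKO and 1741 in *Smad2/3* cKO + A83-01. The reason was not tested.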

How the results depend on the processing

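The count of members called for A83-01 in control organoids was 4 and stayed within 3 to 5 in all alternatives that keep every sample, and ran from 1 to 4 when 1 sample was left out. For *Smad2/3* cKO against control + vehicle it was 4, became 7 at an adjusted p under 0.05 and 3 without the trend, where *Prtn3* was lost, and ran from 3 to 5 with 1 sample left out. The interaction went from 0 called to 1 with a pseudocount of 10 and to 1 at an adjusted p under 0.05, in both cases *Tmprss11d*, whose interaction contains the comparison it was chosen on. The counts for both comparisons with control + vehicle include *Prss29* and *Tmprss11d*, which were chosen on control + vehicle values, so neither is read as support. For the other 3 comparisons the count was 0 in every alternative run.

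Over all genes, 155 were called higher and 140 lower for A83-01 in control organoids, against 397 and 258 with all groups in 1 fit, 103 and 97 without the trend, 474 and 481 at an adjusted p under 0.05, 493 and 485 with the mouse number block, and 37 and 12 without replicate 2 of control + vehicle, the fewest with 1 sample left out. For *Smad2/3* cKO against control + vehicle, 536 and 434 became 257 and 195 without the trend, 1204 and 1206 at an adjusted p under 0.05, 145 and 66 with the replicate block, and 206 and 74 without replicate 1 of control + vehicle, the fewest with 1 sample left out. For the interaction, 13 and 59 became 38 and 57 with a pseudocount of 10, 70 and 138 at an adjusted p under 0.05 and 58 and 128 with the mouse number block.

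With the replicate block, 5 members, *Prss29* and *Tmprss11d* among them, were called for A83-01 in control organoids, where replicates 1 to 3 share mouse numbers. For *Smad2/3* cKO against control + vehicle 2 were called, *Prss22* and the *Prss29* chosen on these values. There samples share only a number (mean correlation 0.0583), and *Prtn3* and *Tmprss11d* were no longer called. The block changed no other member's call. For A83-01 in *Smad2/3* cKO it joins samples of different mice. The mouse number block could not be fitted for A83-01 in *Smad2/3* cKO, and was not run across genotypes because 1 number occurs in both.

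Signs turned only in values that were not called. *Tmprss2* was −0.01 for A83-01 in *Smad2/3* cKO and *St14* 0.01 for *Smad2/3* cKO against control + A83-01 under quantile normalization, and the *Prss28* interaction was −1.84 with a pseudocount of 0.1 and −0.14 with the replicate block. With 1 sample left out, *Tmprss2* ran from −0.07 to 0.37 for *Smad2/3* cKO against control + vehicle and from −0.14 to 0.30 for A83-01 in *Smad2/3* cKO, and *Prss23* from −0.31 to 0.66 for the latter. For *Smad2/3* cKO against control under A83-01, *Prss23* ran from −0.53 to 0.53 and *St14* from −0.00013 to 0.16. For *Smad2/3* cKO against control + A83-01, *Prss23* ran from −0.68 to 0.37 and *Tmprss4* from −0.15 to 0.17. The *Prss28* interaction ran from −0.40 to 1.24. The cause of these changes was not tested. Read depth is unknown, and control + vehicle has 3 samples.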

Other observations

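Genes beside the other members were looked at within 200 kb, and those that passed the test are given as values chosen by that window. For A83-01 in control organoids, limma called 1 of 4 tested near *St14*, 1 of 23 near *Prtn3* and 1 of 9 near *Prss22* higher, beside 1.19% of all genes. In *Smad2/3* cKO against control + vehicle it called 0 of 4, 2 of 24 and 2 of 9 higher, beside 4.08%. Next to *St14*, which was not called, the metalloproteinase gene *Adamts8* had a mean of 157 ± 12.7 (SD, n = 4) in control organoids with A83-01. It was at 5.14 ± 4.42 with vehicle, under the filter, and at 104 ± 87 in *Smad2/3* cKO. *Adamts8* passed the filter only through the samples where it was higher, so its levels are a description and its call is not read as support. Near *Prtn3*, the membrane-shape gene *Palm* rose from 302 ± 122 to 1652 ± 689 with A83-01 (2.43, SE 0.38, adjusted p = 0.00763) and to 1975 ± 407 in *Smad2/3* cKO (2.76, SE 0.28, adjusted p = 0.000563).

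Of the 9 neighbours of *Prss22* tested in *Smad2/3* cKO against control + vehicle, 2 were called higher. *Kctd5*, an adaptor of cullin ubiquitin ligases, was at 3091 ± 148 in control + vehicle and 5849 ± 739 in control + A83-01 (log2 fold change 0.91, SE 0.15, limma, adjusted p = 0.00881), and at 5495 ± 572 in *Smad2/3* cKO (0.83, SE 0.12, adjusted p = 0.00323). *Pdpk1*, the kinase that activates AKT, was at 1062 ± 116 in control + vehicle and 2623 ± 562 in *Smad2/3* cKO (1.28, SE 0.18, adjusted p = 0.00252). No neighbour was called for *Prss8*, *Prss23*, *Tmprss2* or *Tmprss4* in any of the 5 comparisons by limma.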
